A study of Homo sapiens with 6 samples.

Results

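Heterogeneous nuclear ribonucleoproteins (hnRNPs) coat newly made RNA in the nucleus, where they decide which exons are used, where a transcript ends and when it is exported. TDP-43, encoded by TARDBP, shares their layout of RNA recognition motifs and a glycine-rich tail and binds UG-rich RNA. EWSR1 and TAF15 belong to the FET family of RNA-binding proteins, and MATR3 is a nuclear matrix protein with RNA recognition motifs. Several of these proteins, TDP-43 among them, are mutated or mislocalized in amyotrophic lateral sclerosis, and many of them limit or change their own messages or those of their closest relatives through regulated splicing.

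The 34 genes described here are TARDBP, 21 genes with an HNRNP symbol, the polypyrimidine tract binding protein genes PTBP1, PTBP2 and PTBP3, the poly(C)-binding protein genes PCBP1 to PCBP4, RALY, SYNCRIP, EWSR1, TAF15 and MATR3. They were taken by symbol from a table of 26372 genes, and all 34 were found. All 34 also passed the filter on low values (mean FPKM of 1 or more across both groups), as did 13263 genes in all. FPKM counts fragments per unit of gene length and of library size, so levels of different genes can be set side by side on this scale.

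RNA came from SH-SY5Y, a human neuroblastoma cell line, infected with lentivirus that carried a control hairpin (shNC, 3 libraries) or a hairpin against TDP-43 (shTDP43, 3 libraries). Both hairpins were driven from a U6 promoter vector, and the labels of all 6 libraries carry the same protocol, with 2 weeks of selection in puromycin (2 µg/mL) and then 1 µg/mL. Its wording names the TDP-43 knockdown cells and does not say whether shNC cells were selected in the same way. The labels name 1 hairpin per group and do not say whether the libraries came from separate infections or cultures, so p-values rest on the spread among these libraries alone, and that spread may be technical. The RNA was poly(A)-selected, and values are sums per gene. Splicing within a gene and protein levels were not analysed here.

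The table gives no read numbers. From steps in the lowest values the relative depth came to 1.15 to 1.28 for shNC and 1 to 1.11 for shTDP43 libraries, a rough estimate, and the absolute depth is unknown. The small nucleolar RNA SNORD3A ran from 8551 to 552747 FPKM, and shNC replicate 1 and shTDP43 replicate 3 were the libraries low in it. Of 11 noradrenergic neuroblast markers 10 reached 1 FPKM, and their summed level was 1733 to 1738 FPKM in shNC and 1940 to 1996 FPKM in shTDP43. TH, a defining marker, stayed below 1 FPKM in both groups. Of 10 mesenchymal markers 7 reached 1 FPKM, with sums of 313 to 320 against 181 to 189 FPKM. Of 7 Schwann cell or glial markers 2 did, with sums of 19.8 to 21.3 against 9.23 to 9.45 FPKM. Of 9 blood, endothelial and epithelial markers 1 did, with sums of 0.859 to 1.36 against 0.851 to 1.24 FPKM, and CD3E, HBB and KRT5 were listed at 0 in all 6 libraries. The part of these marker differences in the results below was not tested.

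In shNC cells the 34 genes spanned a wide range of levels. HNRNPA1, which encodes one of the most abundant splicing repressors, stood highest at 1525 ± 24.8 FPKM (SD, n = 3) and made up 29.6% of the summed FPKM of the 34 genes. HNRNPA2B1 at 383 ± 10.8, PCBP2 at 290.0 ± 2.54, HNRNPH1 at 263 ± 4.11 and HNRNPK at 242 ± 2.97 FPKM followed. TARDBP, at 56.3 ± 0.288 FPKM, ranked 26 of 34 in shNC and 27 of 34 in shTDP43, where HNRNPUL2 stood above it.

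**Figure D1:**
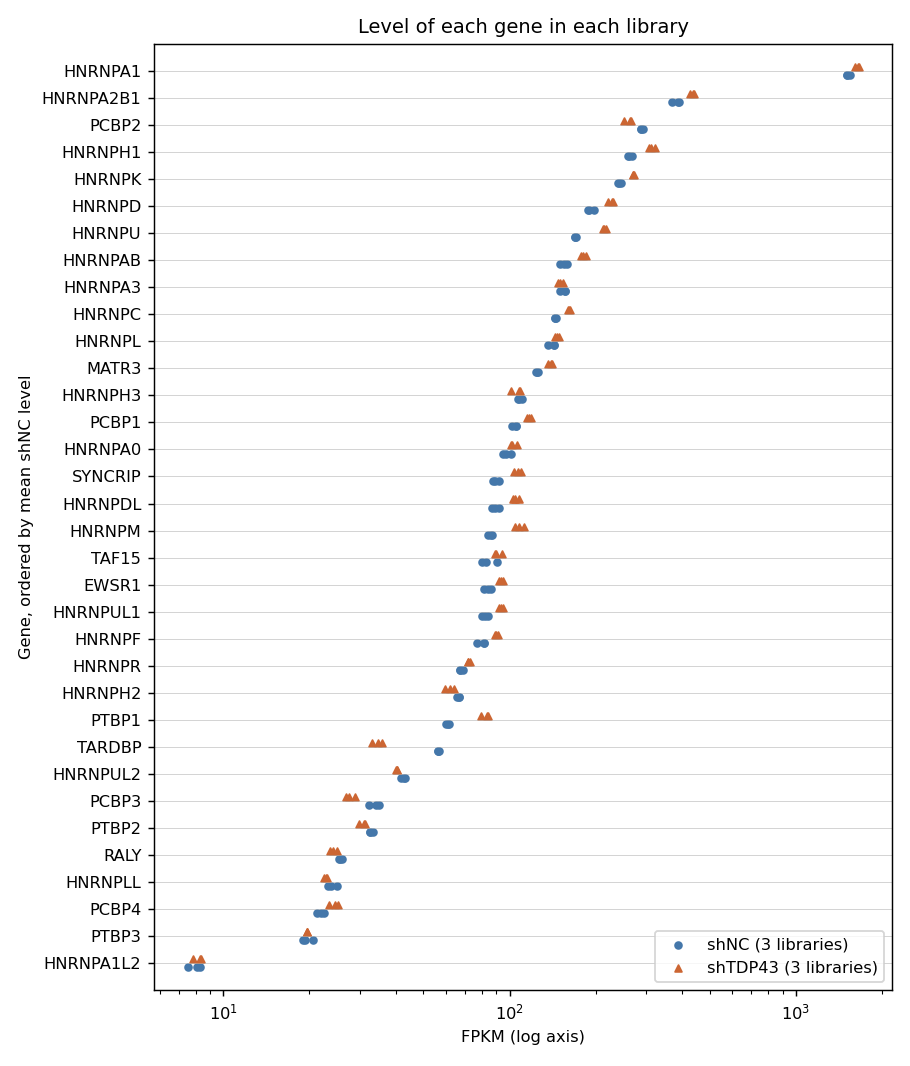
FPKM of each of the 34 genes (log axis) in the 3 shNC libraries (circles) and the 3 shTDP43 libraries (triangles), ordered by the shNC mean. HNRNPA1 stands apart at the top near 1525 FPKM, HNRNPA1L2 is lowest near 7.97 FPKM, and the groups of TARDBP and PTBP1 lie clear of each other.

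The comparison asks how the messages of this protein family stood in cells that carried the TDP-43 hairpin. TARDBP, the targeted gene, had 56.1, 56.2 and 56.6 FPKM in the shNC libraries and 36.0, 33.1 and 34.8 FPKM in the shTDP43 libraries. Each shTDP43 library was lower than each shNC library. TARDBP fell by 0.69 on the log2 scale (SE 0.03; limma adjusted p = 2.84e-06), to 61.5% of control. Its share of the summed FPKM of the 34 genes went from 1.09% ± 0.0149 to 0.619% ± 0.0301 (SD, n = 3), while the sum of all 34 genes went from 5148 ± 50.01 to 5603 ± 63.0 FPKM, 109% of control. For TARDBP, its share and the sum, p was 0.1 by exact permutation (two-sided), which is the smallest that 3 libraries against 3 can give.

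TDP-43 is known to lower its own message by binding UG-rich sequence in the 3′ untranslated region (UTR). As a search for letters only, the longest protein-coding transcript of each gene in GENCODE release 29 (GRCh38) was used. It was searched on the sense strand for uninterrupted runs of at least 3 TG units (TGTGTG). Binding was not tested, so the matches labelled as sites below need not be the sequence through which TDP-43 acts. TARDBP (chromosome 1, 11012654 to 11030528 in RefSeq, plus strand) has 4 such runs, all in its 3′ UTR, at chr1:11023431-11023452, chr1:11023763-11023784, chr1:11025928-11025949 and chr1:11025935-11025956. The last 2 windows overlap. Capitals mark the run, T stands for U in the RNA, and each window is on the sense strand from 5′ to 3′.
TARDBP site 1: tgaaacctTGTGTGggattgat
TARDBP site 2: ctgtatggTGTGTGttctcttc
TARDBP site 3: ttaactgtTGTGTGatgtgtgc
TARDBP site 4: ttgtgtgaTGTGTGcttttgtt

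Runs of this length were about as frequent in the family as in all genes. At least 1 was found in 23 of 34 transcripts (67.6%) and in 65.2% of 19669 protein-coding genes. Runs of 8 or more bases were found in 6 of the 34 (17.6%) and in 19% of all. The transcripts of the 34 genes had a median length of 3666 bases, against 2934 bases in all. By gene, the longest runs of the family lie in the 3′ UTRs of PTBP3 (chr9:112221274-112221303, minus strand), HNRNPD (chr4:82353309-82353334, minus strand) and PTBP2 (chr1:96816058-96816083, plus strand). PTBP3 also has a run of 12 bases close by (chr9:112221260-112221287), longer than those of HNRNPD and PTBP2 and not shown.
PTBP3 site 1: ggtgtgttTGTGTGTGTGTGTGaatgtgtg
HNRNPD site 2: cgtgtttaTGTGTGTGTGcttatttg
PTBP2 site 3: tcctgagcTGTGTGTGTGgacttagt
The genes that carry runs of 8 or more bases did not share a direction in shTDP43. Of these 6, 3 were called higher (HNRNPD, HNRNPC and PCBP4), 1 lower (PTBP2) and 2 neither (PTBP3 and HNRNPA3). Of the other 28 members 16 were called higher, 4 lower and 8 neither, a similar split. Over all tested genes 18.5% were called higher and 19.6% lower. A match describes letters in the mature transcript only, and introns, where TDP-43 also binds, were not searched.

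Across the 34 genes, most messages of the family stood higher in shTDP43 while TARDBP itself stood lower. Of 34 tested, 19 were called higher (55.9%), 5 lower (14.7%) and 10 neither (limma adjusted p under 0.05 over all 13263 tested genes). Over all tested genes 38.1% were called, 18.5% higher and 19.6% lower. Among the 3844 genes of at least 20 FPKM, where small differences are easier to call, 26.0% were higher and 22.4% lower, and of the 32 members at that level 19 were higher and 5 lower. Among the 3844, 48.4% were called in either direction and 60.4% had groups that did not overlap. In 21 members every shTDP43 library lay above every shNC library and in 8 below, against 25.3% and 25.4% of all tested genes (50.7% together). The median log2 change of the 34 genes was 0.13, beside 0.00 over all tested genes, and the sizes were small, with only TARDBP past 0.5 among the 34. Of the 5 that were lower, TARDBP kept its direction under every scaling, whereas HNRNPH2, PTBP2, PCBP2 and PCBP3 turned to the higher side when each library was divided by its own FPKM sum. That scaling moved the median of all genes by 0.32 on the log2 scale, and no member passed the test under it. The count of lower members was 3 rather than 5 without any 1 of the shNC libraries, without shTDP43 replicate 3, and without both libraries low in SNORD3A, with HNRNPH2 and PTBP2 the calls lost.

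**Figure D2:**
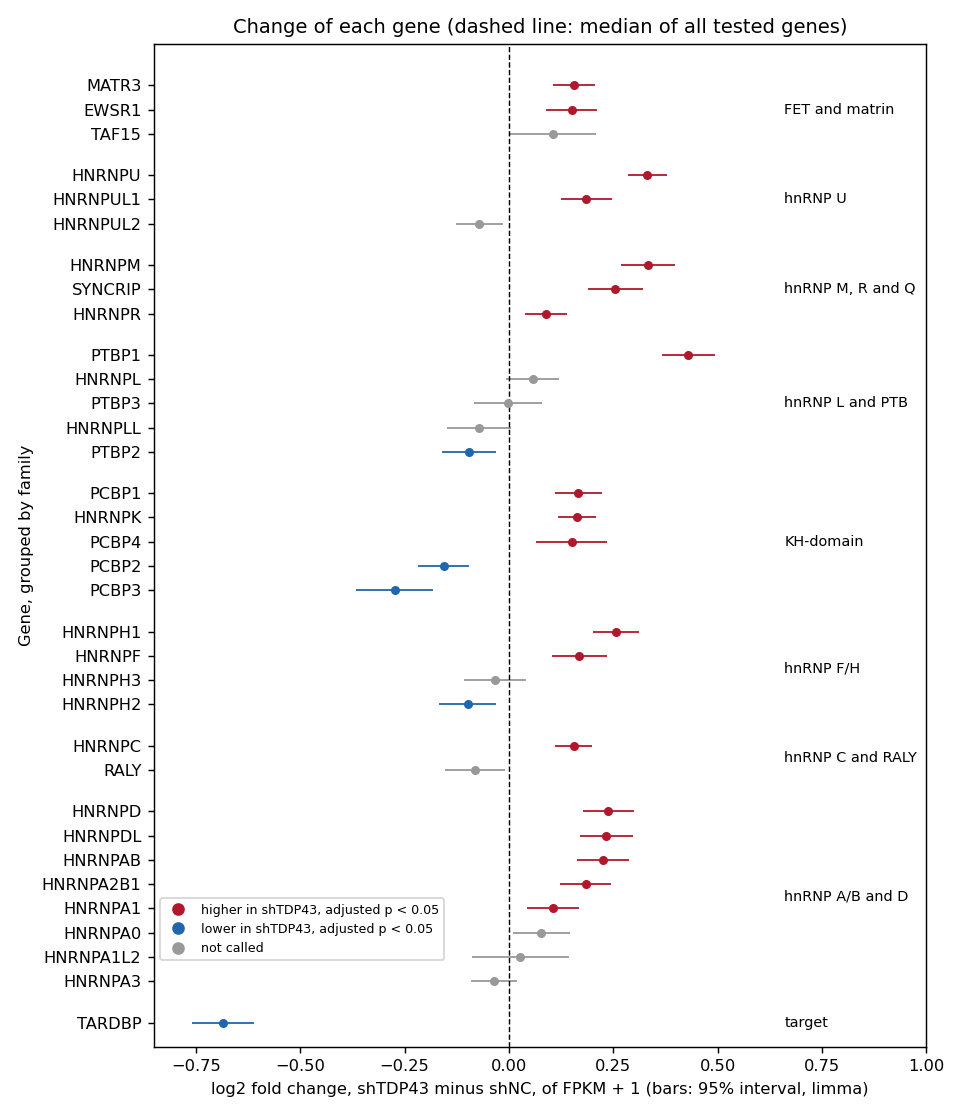
Change of each of the 34 genes on the log2(FPKM + 1) scale, shTDP43 minus shNC, with limma's 95% interval, grouped by family. Of the 34, 19 (red) lie right of the median of all tested genes, 5 (blue) left of it, and TARDBP is farthest left at -0.69; HNRNPH2, PTBP2, PCBP2 and PCBP3 turn to the higher side when libraries are divided by their FPKM sums.

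The A/B and D proteins pair RNA recognition motifs with a glycine-rich tail, the layout closest to that of TDP-43. Of their 8 genes 5 were called higher and 0 lower, beside 18.5% and 19.6% of all tested genes. At 20 FPKM or more the shares of all genes were 26.0% and 22.4%. HNRNPD, which encodes the AU-rich element binding protein AUF1, had 197, 190.0 and 188 FPKM in shNC and 229, 228 and 221 FPKM in shTDP43. The groups did not overlap, and the gene rose to 118% of control (log2 change 0.24, SE 0.03; limma adjusted p = 0.000292). HNRNPDL, its close relative, rose to 118% as well, and HNRNPAB, an AU-rich element and DNA-binding protein gene, to 117% of control.

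HNRNPA2B1, whose product binds RNA in splicing and in transport along neuronal processes, had 390.0, 370 and 388 FPKM in shNC and 437, 440 and 428 FPKM in shTDP43. It rose to 114% of control (limma adjusted p = 0.00114). HNRNPA1 had 1553, 1506 and 1516 FPKM in shNC and 1649, 1662 and 1613 FPKM in shTDP43. The groups did not overlap and the gene rose to 108% of control (log2 change 0.11, SE 0.03; limma adjusted p = 0.0165). That call was lost without shNC replicate 2, shTDP43 replicate 1 or shTDP43 replicate 2 (limma adjusted p up to 0.0689), and with quantile normalization (limma adjusted p = 0.0553).

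The other 3 genes of this branch did not pass the test. HNRNPA0, an intronless gene whose product binds AU-rich RNA, had 94.9, 97.2 and 101 FPKM in shNC and 106, 102 and 101 FPKM in shTDP43 (log2 difference 0.08, 95% interval 0.01 to 0.15; limma adjusted p = 0.0675). The highest shNC library stood just under the lowest shTDP43 library. It was called higher without shNC replicate 3 (limma adjusted p = 0.0327) and with quantile normalization (limma adjusted p = 0.0125). HNRNPA3, a paralog of HNRNPA2B1, had 154 ± 3.13 and 150.3 ± 2.64 FPKM (SD, n = 3; log2 difference -0.04, 95% interval -0.09 to 0.02). HNRNPA1L2, a gene copy of HNRNPA1 on chromosome 13, had 7.97 ± 0.412 and 8.14 ± 0.292 FPKM. HNRNPA1 has several near-identical copies, so the split of reads among them is uncertain. The transcribed pseudogene HNRNPA1P10 on chromosome 19, looked up after its values were seen, was lower, with 5.39, 5.10 and 5.64 FPKM in shNC and 4.09, 4.53 and 4.29 FPKM in shTDP43 (limma adjusted p = 0.00842).

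HNRNPC, whose protein binds runs of uridine and keeps Alu-derived exons out of messages, had 144, 145 and 144 FPKM in shNC and 160, 161 and 162 FPKM in shTDP43. It rose to 112% of control (limma adjusted p = 0.000533). RALY, its paralog, did not pass the test, with 25.6, 25.4 and 26.0 FPKM in shNC and 23.5, 25.0 and 24.1 FPKM in shTDP43 (log2 difference -0.08, 95% interval -0.15 to -0.01; limma adjusted p = 0.0717). Its groups did not overlap, and without shTDP43 replicate 2 it was called lower (limma adjusted p = 0.0424).

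The F/H proteins bind runs of guanosine and moved in different directions. HNRNPH1, the most abundant of them, had 267, 261 and 259 FPKM in shNC and 313, 321 and 308 FPKM in shTDP43, and rose to 120% of control (log2 change 0.26, SE 0.02; limma adjusted p = 0.000124). HNRNPF had 80.1 ± 2.75 FPKM in shNC libraries and 90.1 ± 1.06 FPKM in shTDP43, and rose to 112% of control (SD, n = 3; limma adjusted p = 0.00253). HNRNPH2, the X-linked paralog of HNRNPH1, had 66.6, 66.6 and 65.7 FPKM in shNC and 61.8, 64.2 and 59.7 FPKM in shTDP43. It fell to 93.3% of control with groups that did not overlap (limma adjusted p = 0.0302), but it turned to the higher side with division by the FPKM sum, and the call was lost in 5 of the 6 fits that left out 1 library, all but that without shTDP43 replicate 2 (limma adjusted p up to 0.0875). The read-through gene RPL36A-HNRNPH2 shares its exons and had 2.11 ± 0.947 and 2.27 ± 0.361 FPKM (SD, n = 3). HNRNPH3 had 109 ± 1.91 and 106 ± 4.34 FPKM and did not pass (log2 difference -0.03, 95% interval -0.11 to 0.04).

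The KH-domain genes, which encode poly(C)-binding proteins, were all called, in both directions, beside 48.4% of all genes of at least 20 FPKM. HNRNPK, which acts in transcription and splicing, had 239, 245 and 242 FPKM in shNC and 272, 269.9 and 271 FPKM in shTDP43, and rose to 112% of control (limma adjusted p = 0.000512). PCBP1, an intronless gene, had 105, 102 and 105 FPKM in shNC and 119, 115 and 117 FPKM in shTDP43, and rose to 112% (limma adjusted p = 0.0012). PCBP4, a less abundant paralog, had 21.9 ± 0.617 FPKM in shNC libraries and rose to 24.4 ± 0.916 FPKM in shTDP43 (SD, n = 3; limma adjusted p = 0.0134), a call that was lost without both libraries low in SNORD3A (limma adjusted p = 0.0897).

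PCBP2 and PCBP3 went the other way. PCBP2, which binds C-rich stability elements in UTRs, had 293, 289 and 288 FPKM in shNC and 251, 265 and 265 FPKM in shTDP43. It fell to 89.7% of control (log2 change -0.16, SE 0.03; limma adjusted p = 0.00256). PCBP3 had 34.1, 35.1 and 32.2 FPKM in shNC and 26.9, 27.6 and 28.9 FPKM in shTDP43, and fell to 82.2% of control (log2 change -0.27, SE 0.04; limma adjusted p = 0.0012). Neither gene's groups overlapped, and after TARDBP, PCBP3 had the largest fall of the 34; both turned to the higher side with division by the FPKM sum, at 0.21 and 0.09.

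The polypyrimidine tract binding proteins repress exons, and PTBP1 and PTBP2 are known to take turns in development, PTBP1 in progenitors and non-neuronal cells and PTBP2 in young neurons. PTBP1 had 61.0, 61.7 and 60.2 FPKM in shNC and 79.5, 83.7 and 84.4 FPKM in shTDP43. It had the largest rise of the 34 genes, to 135% of control (log2 change 0.43, SE 0.03; limma adjusted p = 1.67e-05). PTBP2 had 33.4, 32.6 and 32.6 FPKM in shNC and 31.2, 31.0 and 29.9 FPKM in shTDP43. It fell to 93.4% of control (log2 change -0.10, SE 0.03; limma adjusted p = 0.0281), but it turned to the higher side with division by the FPKM sum and was not called without any 1 of the shNC libraries or without shTDP43 replicate 3 (limma adjusted p up to 0.0873). PTBP3, the third paralog, had 19.6 ± 0.820 and 19.6 ± 0.0276 FPKM (SD, n = 3; log2 difference 0.00, 95% interval -0.08 to 0.08).

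HNRNPL and HNRNPLL, which bind CA-rich RNA, did not pass the test. HNRNPL had 143, 143 and 136 FPKM in shNC and 146, 149 and 144 FPKM in shTDP43 (log2 difference 0.06, 95% interval -0.01 to 0.12; limma adjusted p = 0.135). Its groups did not overlap, by a narrow margin, and it was called higher with quantile normalization (limma adjusted p = 0.0148). HNRNPLL, best known for CD45 splicing in lymphocytes, had 24.9, 23.8 and 23.2 FPKM in shNC and 22.5, 22.8 and 23.0 FPKM in shTDP43 (log2 difference -0.07, 95% interval -0.15 to 0.00; limma adjusted p = 0.123). Each shTDP43 library lay below each shNC library, by a narrow margin.

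HNRNPM, HNRNPR and SYNCRIP all rose, beside 26.0% of all genes of at least 20 FPKM that were called higher. HNRNPM, which binds GU-rich RNA in splicing, had 86.2, 86.5 and 84.4 FPKM in shNC and 105, 112 and 108 FPKM in shTDP43, and stood at 126% of control (log2 change 0.33, SE 0.03; limma adjusted p = 7.23e-05). SYNCRIP, also called hnRNP Q and found in neuronal transport granules, had 89.0, 91.5 and 87.2 FPKM in shNC and 107, 109.7 and 104 FPKM in shTDP43, 120% of control (limma adjusted p = 0.000322). HNRNPR, its close paralog, rose to 106%, with 67.6 ± 0.883 FPKM in shNC and 71.9 ± 0.654 FPKM in shTDP43 (SD, n = 3; limma adjusted p = 0.0145). The HNRNPR call was lost without both libraries low in SNORD3A (limma adjusted p = 0.0877) and with no variance trend (limma adjusted p = 0.0601).

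HNRNPU, also known as scaffold attachment factor A, links RNA to chromatin. It had 169.9, 171 and 170.0 FPKM in shNC and 213, 218 and 214 FPKM in shTDP43, and rose to 126% of control (log2 change 0.33, SE 0.02; limma adjusted p = 1.18e-05). The gene listed as HNRNPU-AS1, looked up after its values were seen, rose beside it, with 41.1 ± 0.732 FPKM in shNC and 49.2 ± 0.941 FPKM in shTDP43 (SD, n = 3; limma adjusted p = 0.000202), and reads of the pair may not be told apart: the library kit keeps the strand, but no source here says whether the counting used it. HNRNPUL1, with 82.2 ± 2.19 FPKM in shNC libraries and 93.6 ± 1.56 FPKM in shTDP43, rose to 114% (limma adjusted p = 0.00112). HNRNPUL2 had 43.1, 41.6 and 42.6 FPKM in shNC and 40.5, 40.2 and 40.4 FPKM in shTDP43. It did not pass (log2 difference -0.07, 95% interval -0.13 to -0.01; limma adjusted p = 0.0513), though its groups did not overlap, and it was called lower with median-ratio scaling, with no filter on low values and with a filter at 5 FPKM (limma adjusted p of 0.0407 to 0.0481). It shares exons with the read-through gene HNRNPUL2-BSCL2, which had 13.8 ± 1.45 and 13.7 ± 1.68 FPKM.

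Of the FET genes, EWSR1 had 84.0, 86.1 and 81.7 FPKM in shNC and 91.7, 93.3 and 94.7 FPKM in shTDP43, and rose to 111% of control (log2 change 0.15, SE 0.03; limma adjusted p = 0.00294). TAF15, a subunit of some forms of the transcription factor TFIID, had 82.7, 80.1 and 90.5 FPKM in shNC and 89.6, 94.1 and 88.8 FPKM in shTDP43. Its groups overlapped through shNC replicate 3, and it did not pass (log2 difference 0.11, 95% interval 0.00 to 0.21; limma adjusted p = 0.0979). Without that library TAF15 was called higher (log2 change 0.16; limma adjusted p = 0.0122). MATR3 had 126, 125 and 123 FPKM in shNC and 136, 141 and 139 FPKM in shTDP43, and rose to 112% of control (limma adjusted p = 0.000972). The noncoding gene SNHG4 overlaps it and had 4.49 ± 0.292 and 4.23 ± 0.239 FPKM (SD, n = 3), so the split of reads between them is uncertain.

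Because related genes moved to different extents, 15 pairs were compared by the ratio of both genes within a library, a value that hardly depends on how a library was scaled. The log2 ratio was shifted without overlap of the groups in 13 of 15 pairs. For single genes, groups did not overlap in 50.7% of all tested and in 60.4% of those of at least 20 FPKM. No share over other gene pairs was computed. Some genes, such as PTBP1 and HNRNPU, are shared between pairs, so the 15 are not separate observations. The largest shift was in PTBP2 over PTBP1, with log2 ratios of -0.85, -0.90 and -0.86 in shNC and -1.32, -1.40 and -1.47 in shTDP43. PTBP2 thus stood at 0.539 times the PTBP1 level in shNC and at 0.372 times in shTDP43. PTBP3 over PTBP1 shifted by -0.43 and HNRNPUL2 over HNRNPU by -0.40.

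Other pairs shifted by less. HNRNPH2 over HNRNPH1 had log2 ratios of -1.99, -1.96 and -1.96 in shNC and -2.32, -2.31 and -2.35 in shTDP43. PCBP2 over PCBP1 had 1.47, 1.49 and 1.44 in shNC and 1.07, 1.19 and 1.18 in shTDP43, so the more abundant gene lost part of its lead, from 2.79 to 2.23 times the PCBP1 level. RALY over HNRNPC shifted by -0.24, HNRNPA3 over HNRNPA2B1 by -0.22, and HNRNPR over SYNCRIP by -0.17. As the pairs were written, PCBP4 over PCBP2 was the only one of the 13 with a shift upward, by 0.31. The sign depends on which gene is divided by the other, so it marks no shared direction of the pairs. HNRNPDL over HNRNPD differed by -0.01 and TAF15 over EWSR1 by -0.04, both with overlapping groups (exact permutation p = 0.7 and 0.8). Each of the 13 gave p = 0.1 in an exact two-sided permutation test, the smallest that 3 against 3 libraries allow, and 0.115 after Benjamini-Hochberg adjustment over the 15 pairs, so no pair could pass a threshold of 0.05.

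**Figure D3:**
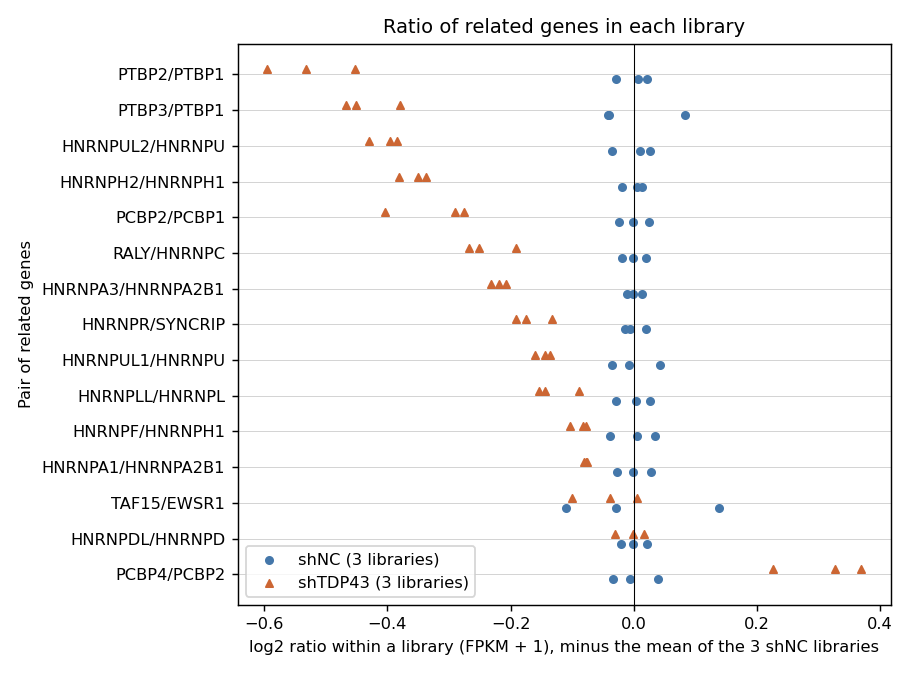
Log2 ratio of 2 related genes within each library, minus the mean of the 3 shNC libraries, for 15 pairs (circles shNC, triangles shTDP43). The groups are apart in 13 pairs, with PTBP2/PTBP1 farthest to the left at a mean of -0.53 and PCBP4/PCBP2 to the right at 0.31, and they overlap in TAF15/EWSR1 and HNRNPDL/HNRNPD.

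PTBP1, HNRNPM and HNRNPU had the largest rises, and their promoter windows were compared. The windows run from 250 bases before to 50 bases after the transcription start, from RefSeq on GRCh38.p14. They were searched on both strands for 8 motifs: the GC box GGGCGG, the CCAAT box CCAAT, the ETS site CCGGAAG, the YY1 site AAGATGGC, the NRF1 site (GCGCA, any 1 base, then GCGC), the TATA box TATAAA, the E box CACGTG and the cyclic AMP response element TGACGTCA. Matches may overlap, also those to 1 motif on both strands. The HNRNPU stretch is shown as an example of the GC-box kind, up to where its annotated transcripts begin, at chr1:244864561-244864793 (minus strand, 5′ to 3′), with matches in capitals.
HNRNPU promoter: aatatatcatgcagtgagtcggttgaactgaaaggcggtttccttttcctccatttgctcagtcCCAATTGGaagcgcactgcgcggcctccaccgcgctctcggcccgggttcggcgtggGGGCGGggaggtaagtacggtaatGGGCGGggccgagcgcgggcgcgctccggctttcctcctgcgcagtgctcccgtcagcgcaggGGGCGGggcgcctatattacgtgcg
All 3 windows are rich in G and C, at 69.3% in PTBP1, 70.7% in HNRNPM and 67% in HNRNPU. PTBP1 (first of its 2 listed windows) and HNRNPU each hold 3 GC boxes. PTBP1 has 2 separate CCAAT boxes, whereas the 2 matches in HNRNPU overlap in a single stretch, read once on each strand. HNRNPM holds none of these but 2 NRF1 sites and 1 E box.

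The windows of the family are mostly of this GC-rich kind. Of the 34 genes 31 had a window in the table, and the first listed was used for each. The windows of all genes include every listed window, whether or not the gene was expressed, so the shares below are not like for like. For some members, such as PTBP2 and HNRNPK, the first bases after the start were not found in a protein-coding GENCODE transcript of the gene. A GC box was found in 26 of 31 (83.9%) and in 45% of all 35116 windows. The CCAAT box was in 45.2% against 34.6%, the E box in 25.8% against 7.26%, the ETS site in 16.1% against 10.3%, the TATA box in 9.68% against 11.5% and the NRF1 site in 6.45% against 5.78%. The YY1 site and the cyclic AMP response element, in 2.89% and 1.85% of all windows, were found in 0 of 31. The median G and C share was 66.3% in the family and 58.7% in all windows. TARDBP, whose message fell, also has 1 GC box.

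Other genes of the same RNA-binding network were taken as 3 lists. SR proteins, the serine- and arginine-rich splicing activators that often oppose hnRNPs at an exon, had 11 of 14 genes higher and 0 lower at a limma adjusted p under 0.05, beside 18.5% and 19.6% of all tested genes. A further gene, SRSF5, had an unadjusted limma p of 0.0382 with a log2 difference of -0.06, on the lower side. SRSF10, a splicing repressor when dephosphorylated, had 29.8 ± 0.256 FPKM in shNC and 36.4 ± 0.453 FPKM in shTDP43 (SD, n = 3) and rose to 122% (limma adjusted p = 8.52e-05). SRSF2, which also acts in transcription elongation, rose to 121% (limma adjusted p = 0.000482). The list median was 0.20 on the log2 scale, beside 0.13 for the 34 genes and 0.00 for all tested genes.

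Nuclear import receptors, which carry proteins into the nucleus, had 6 of 17 genes higher (35.3%) and 4 lower (23.5%), beside 18.5% and 19.6% of all tested genes, so the share of falls was near that of all genes. IPO8 had 16.7 ± 0.556 FPKM in shNC and 22.2 ± 0.171 FPKM in shTDP43 (SD, n = 3) and rose to 134% (limma adjusted p = 6.6e-05), and IPO13 to 129%. IPO5 fell to 90.0% and KPNA1 to 90.6% of control. TNPO1, which encodes transportin-1, the receptor for HNRNPA1 and FET proteins, was singled out after its values were seen. It had 69.3 ± 0.956 FPKM in shNC, 81.6 ± 1.55 FPKM in shTDP43, and rose to 118% (limma adjusted p = 0.000209). The list gave 2 higher and 2 lower without both libraries low in SNORD3A, and 2 lower without shNC replicate 1.

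Enzymes that methylate or phosphorylate RNA-binding proteins had 4 of 23 tested genes higher (17.4%) and 1 lower (4.35%), of 25 listed. The share of rises was near the 18.5% of all tested genes. The arginine methyltransferase genes PRMT3 and PRMT6 rose to 116% and 115% of control (limma adjusted p = 0.0124 and 0.00812). TTBK2, which encodes a tau tubulin kinase, had 18.9 ± 0.421 FPKM in shNC and 15.6 ± 0.482 FPKM in shTDP43 (SD, n = 3) and fell to 82.3% (limma adjusted p = 0.000758). PRMT1, the main asymmetric arginine methyltransferase, named here outside the rule after its values were seen, had 129 ± 3.58 and 126 ± 5.15 FPKM (log2 difference -0.04, 95% interval -0.12 to 0.04).

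**Figure D4:**
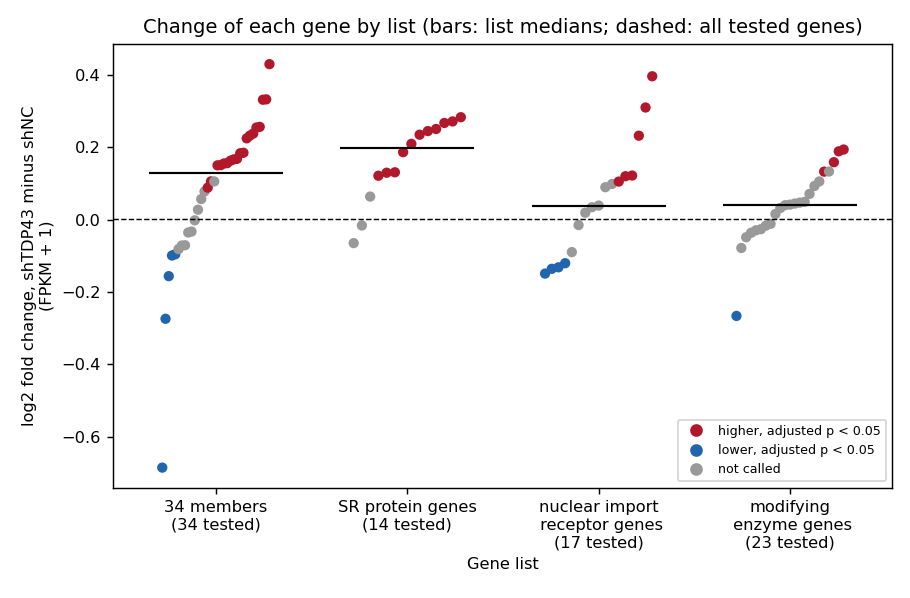
Log2 change (FPKM + 1), shTDP43 minus shNC, of each tested gene in the 34-gene family and in 3 further lists, with bars at the list medians and a dashed line at the median of all tested genes. The medians are 0.13 for the family, 0.20 for SR protein genes, and 0.04 for both import receptor and modifying enzyme genes.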

How the data were processed

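The authors deposited 1 table of FPKM values per gene symbol for 6 libraries. Per the submitters' processing notes the tools were TopHat2 2.1.0, SAMtools and Cuffdiff 2.2.1, with build hg38. No source here gives the annotation, strand use, treatment of reads with several matches or scaling between libraries. FPKM are not counts, so no count model was used.

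Values were analysed as log2(FPKM + 1) with limma 3.58.1 in R 4.3.3. All genes averaging 1 FPKM or more were fitted together with group as the only term, trended moderated variances and a two-sided test, with Benjamini-Hochberg adjustment over all tested genes. On this scale the fold change of low genes is understated. Percentages of control are ratios of mean FPKM, and means carry the SD over 3 libraries. Relative depth came from the most frequent ratio among 1655 genes of low level.

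All 34 genes are accounted for. In the other lists, the 2 largest rises and 2 largest falls past the threshold are named. The members and lists were chosen with earlier results of these data known. In a simulation of shTDP43 against shNC with 13263 genes, with 50 changed genes per size, the test found 5 at 1.1-fold, 21 at 1.2-fold, 42 at 1.5-fold and 48 at 2-fold, beside 6 false calls. Far fewer genes were changed there than the 38.1% called in the data, which makes the adjusted threshold stricter. These recoveries therefore do not give the power of the comparison reported here. Alternatives covered the pseudocount, filter, scaling, variance trend, a replicate block and left-out libraries.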

Additional observations from a re-analysis of the deposited data

How the results depend on the processing

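Absolute depth is unknown, and the lowest value of any of the 34 genes in any library was 7.51 FPKM (HNRNPA1L2). TARDBP kept its call in all 14 alternatives other than division by the library sum, with log2 changes of -0.71 to -0.65. For the other 33 genes under those alternatives, 433 values stayed on their side of the threshold, 20 lost a call and 9 gained one. No called value changed sign under them, but the uncalled HNRNPA1L2, HNRNPA3, HNRNPH3 and PTBP3 did in at least 1.

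As a further scaling, each library was divided by its own FPKM sum (908329 to 1592930). These sums follow SNORD3A only in part. The sum was 1007938 in shNC replicate 1, with SNORD3A at 11541 FPKM, and 1003568 in shTDP43 replicate 2, with SNORD3A at 137209 FPKM. Division by the sum moved the median of all genes to 0.32 and left 341 of 13263 genes called, 244 higher and 97 lower. Of these calls 71.6% were higher, against 48.4% of the calls as deposited. TARDBP then stood at -0.32 (limma adjusted p = 0.355) and the median of the 34 genes at 0.49. Under it 0 members were called higher and 0 lower, and likewise 0 and 0 SR protein, import receptor and modifying enzyme genes. HNRNPH2 (0.27), PTBP2 (0.26), PCBP2 (0.21) and PCBP3 (0.0853) changed sign. Quantile and median-ratio scaling gave 20 and 19 members higher, and 6 lower each.

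Members called lower numbered 3 without a variance trend and 3 without both libraries low in SNORD3A, where import receptor genes were 2 higher and 2 lower and 1562 genes in all were higher; fewer libraries entered that last fit. Leaving out 1 library at a time gave 18 to 21 members higher, 3 to 6 lower, a median of 0.12 to 0.14, 10 SR protein genes higher and 0 to 1 lower, and 4 to 6 import receptor genes higher and 2 to 4 lower. No filter gave 19 members higher and 6 lower.

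The replicate numbers do not pair the libraries: deviations of same-numbered libraries correlated at -0.07, 0.06 and 0.11. With the number as a replicate block, 19 members were higher and 5 lower, and 4502 genes were called rather than 5054.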

Other observations

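RALYL, a neuronal relative of RALY outside the 34 genes, was listed at 0, 0.023 and 0 FPKM in shNC and at 0.275, 0.476 and 0.183 FPKM in shTDP43. The pseudogene HNRNPKP3 had 0.390, 0.416 and 0.376 FPKM in shNC and 0.776, 0.921 and 0.567 FPKM in shTDP43. Both lay below the level tested. COX20, a cytochrome oxidase assembly gene whose GENCODE span overlaps that of HNRNPU on the opposite strand, fell to 87.1% of control (limma adjusted p = 0.0236), while HNRNPU and HNRNPU-AS1 rose. In RefSeq the spans do not overlap, with COX20 at 244835306 to 244845063 and HNRNPU at 244850297 to 244864543 on chromosome 1. RALYL, HNRNPKP3 and COX20 were looked up after their values were seen.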
